A study of Thermothelomyces thermophilus with 49 samples.

Results

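The comparison described here set the Δclr2 strain of *Thermothelomyces thermophilus* (BS6.4) against its parental strain (MJK20.3) 4 h after a cellulose spike. Its members were the libraries labelled with these strains at the fourth time point (t4), 2 bioreactor cultures of Δclr2 and 2 of the parental strain, which make 4 of the 48 libraries of the series. All 4 were sequenced at the same centre, and every gene of the genome was compared across them. The study grew Δclr1, Δclr2, Δclr4 and parental cultures of this thermophilic filamentous fungus as glucose-limited chemostats at 45 °C, exchanged part of the broth at steady state (SS) for glucose-free medium with microcrystalline cellulose, and let the cultures continue as a batch. Mycelium was sampled in the exponential state, at SS, and then 0.5, 1, 2 and 4 h past the spike (called t1 to t4), and poly(A) RNA was sequenced as paired reads of 150 bp.

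The Δclr2 strain carried the deletions of clr2 and ku80, and the parental strain the deletion of ku80 alone. Ku80 acts in non-homologous end joining, so both groups lacked a repair gene of the wild type. BS6.4 is 1 strain: clr2 was replaced by an amdS marker in MJK20.2 with split marker fragments, and the marker was then removed. MJK20.3 was itself obtained by sub-culturing MJK20.2, so an effect of clr2 and any other difference that arose between the 2 lines cannot be told apart. The RNA came from whole mycelium, where fewer cells of a kind and less RNA per cell cannot be told apart either.

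Clr2 is a zinc cluster transcription factor. In *Neurospora crassa* clr-2 is known, together with clr-1, as an activator of the genes that fungi use on cellulose. The enzymes concerned divide the work: endoglucanases cut inside the cellulose chain, cellobiohydrolases release cellobiose from its ends, lytic polysaccharide monooxygenases (LPMOs) open the crystalline surface by oxidation, and β-glucosidases split cellobiose into glucose. Hemicellulases, pectinases and esterases remove the other polymers and side groups of the plant cell wall.

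The 4 libraries held 5037317 and 6195757 counts in Δclr2 cultures and 6211752 and 6404961 counts in parental cultures, within the range of 2567179 to 22212257 counts over all 48. Levels are given as CPM, the counts of a gene scaled to a common library size with trimmed mean of M-values (TMM) factors, with 1 value per culture and n = 2 per strain. Within a time point each value is that of a separate bioreactor culture, and the time points of a strain were sampled from the same duplicate cultures. Log2 fold changes (Δclr2 over parental) come with a standard error (SE) calculated as the absolute log2 fold change over the square root of F, and adjusted p-values are those of the edgeR quasi-likelihood test with Benjamini-Hochberg adjustment over 8565 genes, called below 0.05. The TMM factors were 1.28 and 1.24 in Δclr2 cultures and 0.902 and 0.914 in parental cultures. An exact permutation test of 2 cultures against 2 cannot go below p = 0.33, so single values such as shares were not tested, and genes were tested only in the fit across all genes.

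The deleted gene was checked first. The clr2 gene (MYCTH_38704, chromosome 1, 8537416 to 8539985 in assembly ASM22609v1) had 0 and 0 counts in Δclr2 cultures, against 3144 and 2746 counts in parental cultures. With 3 counts over the group as the limit that a count of 0 allows, clr2 was at least 2420-fold lower in the Δclr2 strain. At the other time points from SS on, clr2 was at 0 CPM in every Δclr2 culture except for 0.161 CPM in 1 culture at t2, against 8.64 and 14.9 CPM in parental cultures at SS and 959 and 835 CPM in parental cultures at t2.

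Differences between the strains at t4 ran through much of the genome. The study reported that the Δclr2 cultures could not use the cellulose and stopped growing. Its parental cultures began a new exponential phase. For the genes below, an effect of clr2 on a gene and an effect of the stopped growth cannot be told apart. Of the 8565 genes tested, 1893 rose (22.1%) and 2325 fell (27.1%), 49.2% in all, and the median log2 fold change over all genes was -0.02. Of these, 917 rose and 1174 fell by more than 1 on the log2 scale (10.7% and 13.7% of the genes tested), and 19 rose and 58 fell by more than 5. The division into higher and lower genes depended on the scaling: with library totals in place of the TMM factors, the median log2 fold change over all genes was 0.45 and 3859 genes were called higher and 1196 lower. With totals that left out the CAZY genes, an alternative chosen after seeing the data, the median was 0.28 and the counts were 3042 and 1464. The shares over all genes, 22.1% higher and 27.1% lower, are the background for the counts of each list below.

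Few strain differences were called before the spike, which does not show that the others were absent. The test of the change from SS to t4, given below, called 31.4% of genes, against 49.2% called at t4. At SS 3 genes were higher (0.035% of those tested) and 5 lower (0.0584%) in the Δclr2 strain, 0.0934% in all. Besides clr2, the lower ones were the mannanase gene MYCTH_84297 (0.348 and 0.353 CPM in Δclr2 cultures, 5.89 and 13.2 CPM in parental cultures), the family 24 glycoside hydrolase gene MYCTH_2312918 and the unannotated MYCTH_2308118 and MYCTH_2309660. The last 3 were lower at t4 too, as was MYCTH_84297 (log2 fold changes of -3.35, -1.61 and -3.81). The higher ones were the N-acetylglucosaminidase gene MYCTH_2294755 and the unannotated MYCTH_2305024 and MYCTH_2308269, of which MYCTH_2294755 was also higher at t4 (1.77 ± 0.17 SE). After the spike the number of calls was larger at each later time: at t1 1100 genes (12.8%) were called higher and 1372 (16.0%) lower, 28.9% in all, with 1597 (18.6%) and 1773 (20.7%) at t2, 39.3% in all, and 1843 (21.5%) and 2079 (24.3%) at t3, 45.8% in all. The genes called at SS were named after their values were seen, apart from clr2, MYCTH_84297 and MYCTH_2294755.

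**Figure D1:**
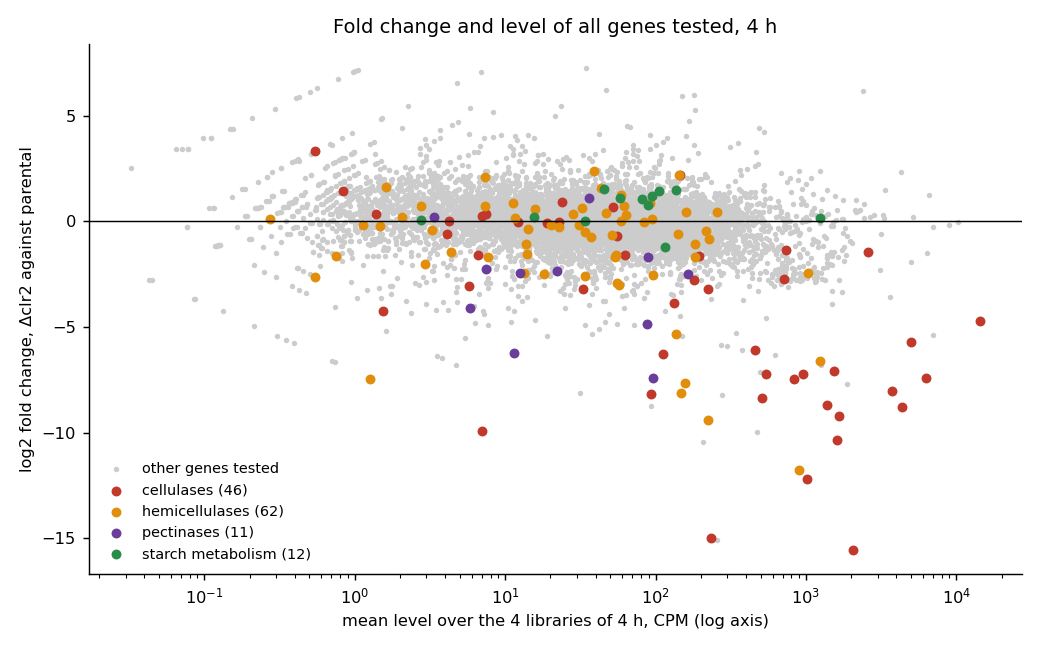
Log2 fold change of every gene tested at t4 (Δclr2 over parental, vertical axis) against its mean level over the 4 libraries (CPM, log axis). Coloured points are the 46 cellulase, 62 hemicellulase, 11 pectinase and 12 starch metabolism genes tested; the cellulase points reach from a log2 fold change of -15.55 to 3.31, and their most abundant member lies at -4.72.

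The cellulase genes had the lowest median log2 fold change of the classes of carbohydrate-active enzymes (CAZYs). Of 49 genes listed as cellulases 46 were tested: 33 fell, 3 rose and 10 were not called, beside 27.1% lower and 22.1% higher over all genes, and their median log2 fold change was -3.22. Cellulase genes took 0.439% and 0.597% of all counts in Δclr2 cultures, against 9.27% and 8.85% in parental cultures. The 95% Wilson intervals, which cover counting error only, were 0.434% to 0.445% and 0.591% to 0.603% in Δclr2 cultures and 9.25% to 9.29% and 8.83% to 8.87% in parental cultures. The share of all CAZY genes was 5.00% and 5.32% in Δclr2 cultures and 16% and 15.3% in parental cultures.

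All 6 cellobiohydrolase genes tested fell (7 are listed), with a median log2 fold change of -5.20. MYCTH_109566 (chromosome 1, 9753507 to 9755507), the most abundant transcript of the parental cultures, had 896 and 1208 CPM in Δclr2 cultures, against 28442 and 26909 CPM in parental cultures. The Δclr2 values lay far below the parental ones, and the fold change was -4.72 ± 0.37 (SE) on the log2 scale (adjusted p = 5.97e-12). MYCTH_97137 (chromosome 7, 24661 to 26448) had 19.8 and 19.3 CPM in Δclr2 cultures and 8282 and 9155 CPM in parental cultures (-8.80 ± 0.72, adjusted p = 8.7e-11). MYCTH_66729, whose product carries a cellulose-binding annotation, had 46.7 and 97.2 CPM in Δclr2 cultures and 13014 and 11904 CPM in parental cultures (-7.43 ± 0.38, adjusted p = 1.65e-16). The family 6 glycoside hydrolase gene MYCTH_2303045 had 141 and 239 CPM in Δclr2 cultures and 10951 and 8668 CPM in parental cultures (-5.69 ± 0.37, adjusted p = 8.15e-14). The strains did not overlap for any of these 4 genes, where both Δclr2 cultures lay below both parental cultures for 40.9% of all genes tested and above them for 38.3%.

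Among the 9 endoglucanase genes 7 fell and 1 rose, with a median log2 fold change of -3.87. MYCTH_86753 (chromosome 1, 2823610 to 2825549) had 28.2 and 28.5 CPM in Δclr2 cultures, against 7999.9 and 6875 CPM in parental cultures. This was a fold change of -8.04 ± 0.30 (SE) on the log2 scale, and the adjusted p was 1.26e-19. MYCTH_116384, listed as an oligoxyloglucanase, had 7.12 and 7.32 CPM in Δclr2 cultures and 1186 and 984 CPM in parental cultures (-7.23 ± 0.34, adjusted p = 1.87e-17). MYCTH_52068 had 0 and 0 counts in Δclr2 cultures and 76 and 85 counts in parental cultures, at least 66.1-fold lower in the Δclr2 strain with the same limit of 3 counts; it was named after its values were seen.

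Other endoglucanase genes showed smaller strain differences at t4. MYCTH_76901 had 108 and 264 CPM in Δclr2 cultures and 1385 and 1112 CPM in parental cultures (-2.74 ± 0.33, adjusted p = 5.7e-08). MYCTH_116157 had 70.6 and 117 CPM in Δclr2 cultures and 355 and 236 CPM in parental cultures (-1.65 ± 0.28, adjusted p = 1.53e-05). Neither was called when the 4 libraries of t4 were fitted alone (-2.71 and -1.61). The member that rose, MYCTH_94336, is described in the same list as a β-1,6-galactanase and was named after its values were seen (0.92 ± 0.32, adjusted p = 0.0164); its call was lost without the second Δclr2 culture (0.90) and without the second parental culture (0.77).

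**Figure D2:**
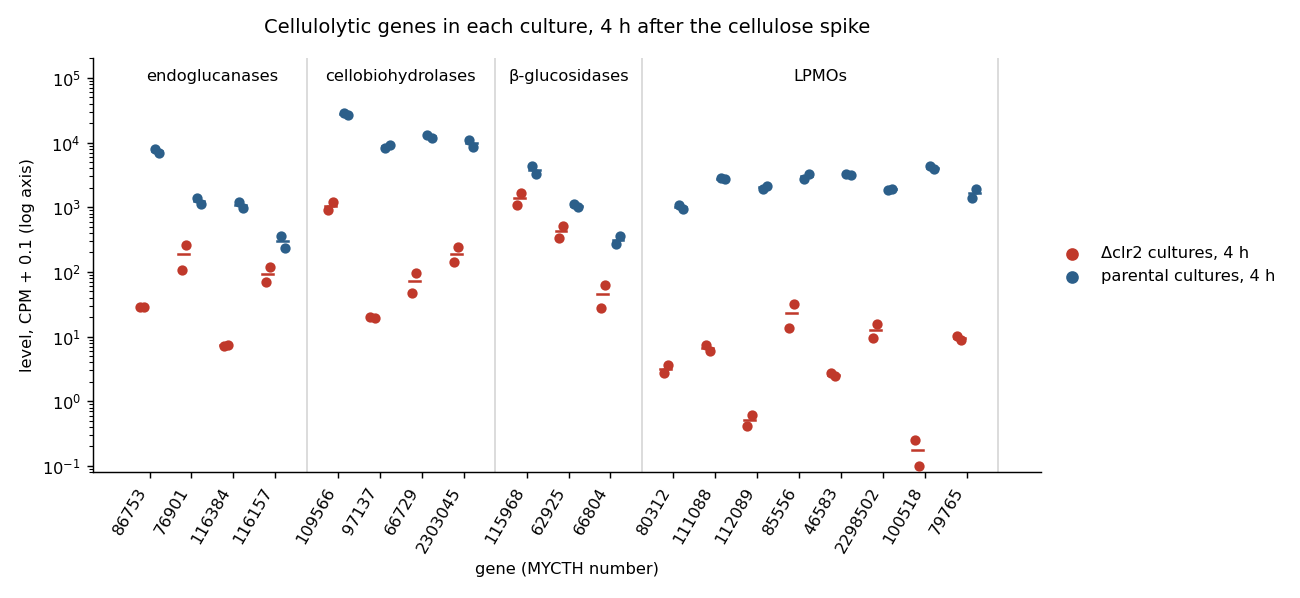
Level of 19 cellulolytic genes in each culture at t4, as CPM + 0.1 on a log axis, with the 2 Δclr2 cultures (red) left of the 2 parental cultures (blue) for each gene; short lines are the means of 2 cultures. The strains overlap for none of the 19, beside 40.9% of all genes with both Δclr2 cultures below both parental cultures. The distance between the means of the strains is smallest for the β-glucosidase gene MYCTH_62925 and widest for the LPMO gene MYCTH_100518.

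The LPMO genes had the lowest median log2 fold change of the cellulase types. Of 24 LPMO genes listed 22 were tested: 15 fell and the other 7 were not called (2 genes were called higher with library totals alone), and the median was -6.18. MYCTH_100518 (GH61W, chromosome 2, 3526384 to 3527289) had 1 and 0 counts in Δclr2 cultures, against 24444 and 22492 counts in parental cultures. This single count gives a ratio of 57800 with a 95% counting interval from 10400 to 2280000. MYCTH_2112799 (GH61P) had 0 and 0 counts in Δclr2 cultures and 2346 and 3049 counts in parental cultures, at least 2220-fold lower in the Δclr2 strain. MYCTH_112089 (GH61A) had 2 and 4 counts in Δclr2 cultures and 10832 and 12600 counts in parental cultures (-12.18 ± 1.00, adjusted p = 8.82e-10). These 3 genes were thus at 6 counts or fewer in the Δclr2 strain over both cultures.

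The next 3 LPMO genes had 2.35 to 31.8 CPM in Δclr2 cultures at t4. MYCTH_46583 (GH61H) had 2.63 and 2.35 CPM in Δclr2 cultures and 3298 and 3104 CPM in parental cultures (-10.32 ± 0.47, adjusted p = 1.89e-17). MYCTH_110651 (GH61G) had 4.33 and 6.67 CPM in Δclr2 cultures and 3210.2 and 3448 CPM in parental cultures (-9.22 ± 0.43). MYCTH_85556 (GH61E) had 13.6 and 31.8 CPM in Δclr2 cultures and 2781 and 3318 CPM in parental cultures (-7.06 ± 0.53). All 3 lay below the parental range in both Δclr2 cultures, which held for 40.9% of all genes tested. The log2 fold changes of the other LPMO genes named by the study were -8.70 for MYCTH_111088, -8.34 for MYCTH_80312, -7.46 for MYCTH_79765 and -7.23 for MYCTH_2298502. The 7 LPMO genes that were not called were all weakly expressed in both strains, with means of at most 18.4 CPM in the Δclr2 strain and 19.3 CPM in the parental strain.

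β-Glucosidase genes had the highest median of the cellulase types: 5 of 9 fell and 2 rose, with a median log2 fold change of -0.69. MYCTH_115968 had 1096 and 1657 CPM in Δclr2 cultures, against 4328 and 3222 CPM in parental cultures (-1.46 ± 0.24, adjusted p = 7.04e-06). MYCTH_62925 had 337 and 507 CPM in Δclr2 cultures and 1125 and 1002 CPM in parental cultures (-1.33 ± 0.30, adjusted p = 0.000386). Both were well expressed in the Δclr2 strain at t4, though the level of MYCTH_115968 had been lower at t3, as given below. MYCTH_66804 had 28 and 62 CPM in Δclr2 cultures and 272 and 353 CPM in parental cultures (-2.79 ± 0.44, adjusted p = 6.18e-06). The genes that rose were named after their values were seen. MYCTH_80304 had 266 and 208 CPM in Δclr2 cultures and 58.9 and 46 CPM in parental cultures (2.18 ± 0.25, adjusted p = 1.35e-08). MYCTH_2129052 had 8 and 6 counts in Δclr2 cultures and 0 and 1 count in parental cultures (adjusted p = 0.0431), a call lost without any 1 of the 4 libraries (log2 fold changes of 2.45 to 6.11) and with DESeq2 (3.59).

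Cellobiose dehydrogenases oxidize cellobiose and can pass electrons to LPMOs. Of the 3 genes with this annotation, a term the study picked on these samples so that the count is no independent evidence of a direction, 2 fell. MYCTH_111388 (cbdA) had 219 and 436 CPM in Δclr2 cultures, against 15036 and 12136 CPM in parental cultures (-5.37 ± 0.43, adjusted p = 8.08e-12). MYCTH_81925 had 379 and 744 CPM in Δclr2 cultures and 7529 and 5751 CPM in parental cultures (-3.56 ± 0.38, adjusted p = 3.3e-09). In both genes the second Δclr2 culture lay above the first. Both Δclr2 cultures lay below the parental cultures, which held for 40.9% of all genes tested. MYCTH_58125 had 10.5 and 14.5 CPM in Δclr2 cultures and 12 and 10.9 CPM in parental cultures, which overlapped (0.13 ± 0.36, adjusted p = 0.784, and -0.10 without the second Δclr2 culture).

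Genes whose products bind cellulose were lower as well. All 16 genes of the term cellulose binding, again picked by the study on these samples, fell, with a median log2 fold change of -8.10. Among them were 2 genes described only by a family 1 carbohydrate-binding module. MYCTH_33936 had 0.774 and 1.05 CPM in Δclr2 cultures and 989.8 and 907 CPM in parental cultures (-9.99 ± 0.75, adjusted p = 8.7e-11). MYCTH_112399 had 5.88 and 7.97 CPM in Δclr2 cultures and 941 and 1033 CPM in parental cultures (-7.14 ± 0.38, adjusted p = 3.11e-15). For MYCTH_37844, a gene with a family 18 module, 0 and 1 count in Δclr2 cultures stood against 56 and 51 counts in parental cultures, a ratio of 132 with a 95% counting interval from 23.2 to 5260.

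Hemicellulase genes were more often called lower than higher. Of 65 listed genes 62 were tested: 29 fell and 9 rose, beside 27.1% lower and 22.1% higher over all genes. Their median log2 fold change was -0.44, which became 0.02 with library totals alone. They took 0.338% and 0.411% of all counts in Δclr2 cultures and 0.912% and 0.997% in parental cultures. Of the 9 xylanase genes tested 6 fell and 3 were not called, with a median of -2.04. The family 11 xylanase gene MYCTH_100068 had 0.619 and 0.654 CPM in Δclr2 cultures, against 462 and 423 CPM in parental cultures. This was a fold change of -9.41 ± 0.51 (SE) on the log2 scale (adjusted p = 1.14e-14).

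Of the 4 β-xylosidase genes 1 was called lower and the other 3 were not called, with a median of 0.05. MYCTH_80104 had 267 and 326 CPM in Δclr2 cultures and 242 and 197 CPM in parental cultures (0.43 ± 0.21, adjusted p = 0.0867). The log2 fold changes of MYCTH_50705 (0.75, adjusted p = 0.108) and MYCTH_104628 (-0.34, adjusted p = 0.291, and 0.13 with library totals alone) were not called either. With library totals alone MYCTH_80104 and MYCTH_50705 were called higher (0.90 and 1.22), as they were with the 4 libraries of t4 fitted alone (0.47 and 0.78). MYCTH_2072383 was called lower on 0 and 2 counts in Δclr2 cultures and 7 and 4 counts in parental cultures, a ratio of 6.78 (1.48 to 62.9), and the call was lost without the first Δclr2 culture (-1.81) or the first parental culture (-2.17).

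The 3 genes annotated as endo-β-mannosidases, which cut the mannan backbone, all fell, but the study picked this term on these samples. Of the 10 genes that the study lists as mannanases, 4 fell, 2 rose and 4 were not called, with a median of -0.233. Other hemicellulase types held higher genes too. Of 7 galactosidase genes 2 fell and 2 rose, with a median of 0.375 and a highest log2 fold change of 2.40. Over all genes 27.1% were lower and 22.1% higher. MYCTH_84297 had 0.774 and 0.261 CPM in Δclr2 cultures, against 1791 and 1805 CPM in parental cultures (-11.78 ± 0.51, adjusted p = 9.24e-18). MYCTH_99077 (GH26) had 0.774 and 1.31 CPM in Δclr2 cultures and 302 and 289 CPM in parental cultures (-8.10 ± 0.36, adjusted p = 1.17e-17). MYCTH_74462 differed less, with 113 and 123 CPM in Δclr2 cultures and 233 and 266 CPM in parental cultures (-1.08 ± 0.24, adjusted p = 0.000486). Of the 2 galactanase genes, MYCTH_43163 (ganA) had 7.12 and 6.14 CPM in Δclr2 cultures and 209.9 and 323 CPM in parental cultures (-5.33 ± 0.38, adjusted p = 2.21e-12). MYCTH_52514 was not called (0.71 ± 0.52, adjusted p = 0.266) and was called higher with library totals alone (1.17).

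Among the pectinase genes 9 of 11 fell and 1 rose, with a median log2 fold change of -2.44. All 8 pectin lyase genes, which cleave the polygalacturonan backbone by elimination, fell (median -3.31). MYCTH_102322 (PL3) had 0.464 and 1.7 CPM in Δclr2 cultures, against 129.6 and 254 CPM in parental cultures (-7.39 ± 0.76, adjusted p = 7.59e-09). MYCTH_52463 (PL1) fell by 6.24 and MYCTH_51766 (PL4) by 4.85 on the log2 scale. Of the 2 polygalacturonase genes, MYCTH_55717 had 6.65 and 7.84 CPM in Δclr2 cultures and 25.9 and 47.8 CPM in parental cultures (-2.34 ± 0.51, adjusted p = 0.000381). The second, MYCTH_2057906, had 2.32 and 4.84 CPM in Δclr2 cultures and 2.86 and 3.42 CPM in parental cultures, which overlapped (0.21 ± 0.43, and -0.42 without the second Δclr2 culture). The gene that rose was the rhamnosidase MYCTH_2299923, with 52.6 and 45 CPM in Δclr2 cultures and 22.3 and 23.6 CPM in parental cultures (1.09 ± 0.22, adjusted p = 0.000114).

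Of 14 esterase genes tested (19 listed) 7 fell and 2 rose, with a median log2 fold change of -2.003. The acetylxylan esterase MYCTH_2066457 had 1 and 3 counts in Δclr2 cultures, against 1888 and 2859 counts in parental cultures (-10.44 ± 0.79, adjusted p = 7.34e-11). MYCTH_84133 (CE16) had 10.8 and 11.1 CPM in Δclr2 cultures and 692 and 789 CPM in parental cultures (-6.07 ± 0.29, adjusted p = 1.94e-17). The acetylxylan esterase MYCTH_49700 was called on 0 and 0 counts in Δclr2 cultures and 5 and 3 counts in parental cultures (adjusted p = 0.0488), and the call was lost without any 1 of the 4 libraries (-5.95 to -5.17). The 2 that rose were named after their values were seen: MYCTH_105128 (CE3) had 50.1 and 35.3 CPM in Δclr2 cultures and 5.71 and 5.3 CPM in parental cultures (2.95 ± 0.54, adjusted p = 5.33e-05). MYCTH_2019397 (CE12) had 3.1 and 3.14 CPM in Δclr2 cultures and 0.893 and 0.854 CPM in parental cultures, a call lost without any 1 library (1.79 to 1.85).

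Starch metabolism was the CAZY class with more genes higher than lower with TMM factors: 7 of its 12 genes rose, 1 fell and 4 were not called, with a median log2 fold change of 0.92. The class took 0.293% and 0.280% of all counts in Δclr2 cultures and 0.162% and 0.155% in parental cultures. The α-amylase MYCTH_69975 had 62.2 and 73.3 CPM in Δclr2 cultures, against 23.4 and 23.8 CPM in parental cultures (1.52 ± 0.16, adjusted p = 1.12e-09). The glucoamylase MYCTH_2296256 had 211 and 188 CPM in Δclr2 cultures and 76.2 and 68.2 CPM in parental cultures (1.47 ± 0.16, adjusted p = 5.49e-09). The α-glucosidase MYCTH_2087807 had 157 and 153 CPM in Δclr2 cultures and 57.8 and 56.9 CPM in parental cultures (1.43 ± 0.20, adjusted p = 6.67e-07). In each of these 3 genes both Δclr2 cultures exceeded both parental cultures, which held for 38.3% of all genes tested.

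The other members of the class were weaker. The α-glucosidases MYCTH_2305458 and MYCTH_2295601 (1.19 and 0.78), the α-amylase MYCTH_2312374 (1.06) and the debranching enzyme MYCTH_2303065 (1.12 ± 0.39) rose, the last a call lost without any 1 of the 4 libraries (0.99 to 1.26). The α-glucosidase MYCTH_2302289 fell, with 67 and 72.5 CPM in Δclr2 cultures and 149 and 175 CPM in parental cultures (-1.22 ± 0.19, adjusted p = 2.59e-06). The α-amylases MYCTH_2305783 (0.15) and MYCTH_77082 (0.01), the glucoamylase gla1 (MYCTH_72393, 0.21) and the debranching enzyme MYCTH_2303089 (0.06) were not called. MYCTH_2305783 was called higher with library totals alone (0.62), MYCTH_77082 changed sign without the second Δclr2 culture (-0.04) or the first parental culture (-0.01), and MYCTH_2303089 without the same libraries (-0.11 and -0.28). The 3 genes with the term glycogen biosynthetic process, MYCTH_2312374 and MYCTH_2295601 of this class and the family 3 glycosyltransferase MYCTH_2301334 (0.88 ± 0.23), rose; the study picked this term on these samples.

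Genes for the fungus's own cell wall and for glycosyltransferases were more often called lower than higher with TMM factors, and more often higher than lower with library totals alone. Of 33 cell wall remodelling genes 14 fell and 7 rose (13 rose and 7 fell with library totals alone). Of 82 glycosyltransferase genes tested 28 fell and 8 rose (16 fell and 32 rose with library totals alone). Over all genes 27.1% were lower and 22.1% higher. With library totals alone the balance turned over all 8565 genes too, with 3859 higher and 1196 lower. The cell wall glucanase MYCTH_2296382 had 289.7 and 359.7 CPM in Δclr2 cultures, against 1158 and 1123 CPM in parental cultures (-1.81 ± 0.29, adjusted p = 4.49e-06). The chitinase MYCTH_2308241 had 217 and 237 CPM in Δclr2 cultures and 709 and 822 CPM in parental cultures (-1.76 ± 0.18, adjusted p = 1.46e-09). The N-acetylglucosaminidase MYCTH_2294755, which acts on chitin fragments, had 1691 and 1417 CPM in Δclr2 cultures and 477 and 433 CPM in parental cultures (1.77 ± 0.17, adjusted p = 3.5e-10). Among the glycosyltransferase genes MYCTH_2309764 (GT2) fell by 2.62 and MYCTH_2309651 (GT31) by 3.15 on the log2 scale. MYCTH_2307608 (GT8) had 1 and 1 count in Δclr2 cultures and 11 and 11 counts in parental cultures, a ratio of 13.6 (3.33 to 119).

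**Figure D3:**
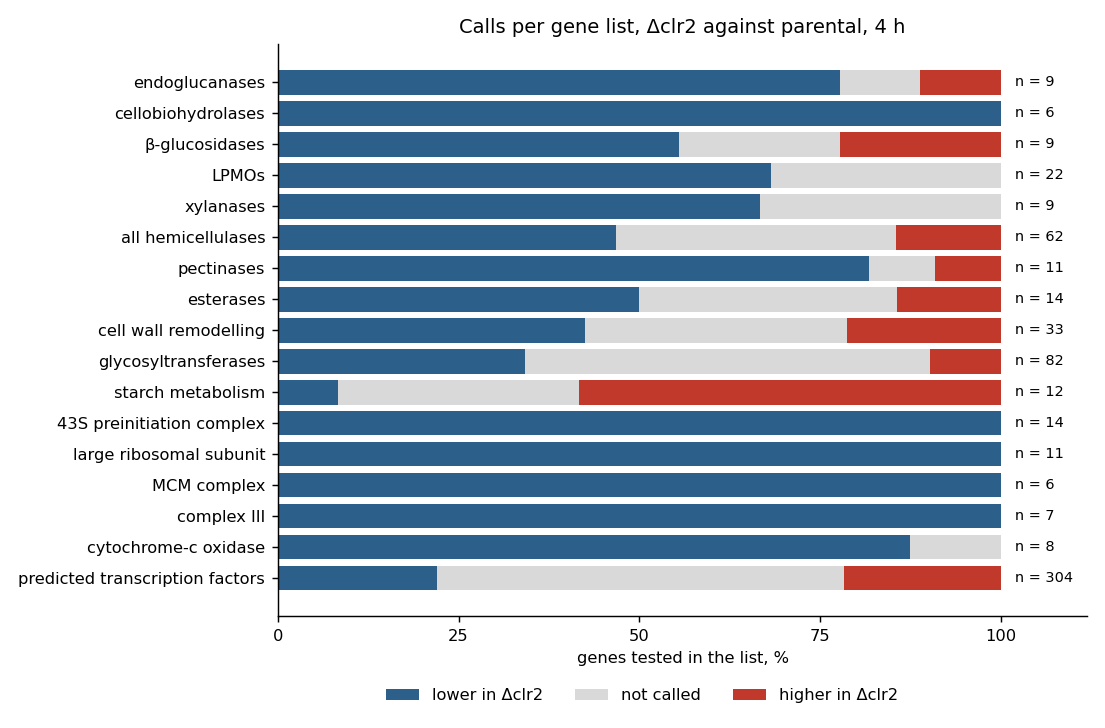
Share of the genes tested in each list that were called lower (blue), not called (grey) or called higher (red) in the Δclr2 strain at t4, with the number tested at the right. All 6 cellobiohydrolase genes and all genes of the 43S preinitiation complex, the large ribosomal subunit, the MCM complex and complex III were lower, 7 of 12 starch metabolism genes were higher, and the 304 predicted transcription factor genes divided into 67 lower and 66 higher.

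The study listed 357 predicted transcription factor entries, which are 312 distinct genes. Of the 304 tested, 66 rose and 67 fell, beside 22.1% higher and 27.1% lower over all genes, and the median log2 fold change of -0.02 was that of all genes (155 rose and 25 fell with library totals alone, and 44 fell without the second Δclr2 culture). Of 47 orthologs of known fungal regulators 11 rose and 14 fell, clr2 among the 14, and the median was -0.10 (23 rose and 6 fell with library totals alone).

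Hac1 (MYCTH_2310995), the transcription factor of the unfolded protein response, had 378 and 465 CPM in Δclr2 cultures, against 3006 and 2795 CPM in parental cultures (-2.78 ± 0.18, adjusted p = 3.53e-14). Its upstream sensor Ire1 (MYCTH_2308921) had 196 and 169.5 CPM in Δclr2 cultures and 288 and 296 CPM in parental cultures (-0.68 ± 0.22, adjusted p = 0.0132), a call lost without the second culture of either strain (-0.56 and -0.66) and with library totals alone (-0.20). MYCTH_2308084, a zinc cluster gene for which no ortholog is given, had 4.64 and 5.1 CPM in Δclr2 cultures and 37.8 and 49.6 CPM in parental cultures (-3.16 ± 0.31, adjusted p = 5.21e-10). In all 3 genes both Δclr2 cultures lay below both parental cultures, which held for 40.9% of all genes tested.

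Cre1 (MYCTH_2310085), which mediates carbon catabolite repression, had 301 and 235 CPM in Δclr2 cultures, against 602 and 535 CPM in parental cultures (-1.08 ± 0.16, adjusted p = 1.54e-06). Vib1 (MYCTH_46530), a regulator upstream of cellulase genes in *N. crassa*, had 16.7 and 23.3 CPM in Δclr2 cultures and 68.7 and 57.9 CPM in parental cultures (-1.66 ± 0.27, adjusted p = 6.21e-06). Clr4 (MYCTH_2296492) rose, with 236 and 243 CPM in Δclr2 cultures and 152 and 175 CPM in parental cultures (0.55 ± 0.14, adjusted p = 0.00159).

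Clr1 (MYCTH_2298863), the partner regulator of cellulase genes, was not called. It had 301 and 309.6 CPM in Δclr2 cultures and 292 and 304 CPM in parental cultures, which overlapped (0.03 ± 0.22, adjusted p = 0.91), and was called higher with library totals alone (0.51). The xylanase regulator Xyr1 (MYCTH_2310145) had 943 and 1063 CPM in Δclr2 cultures and 943 and 903 CPM in parental cultures (0.12 ± 0.30, adjusted p = 0.767). McmA (MYCTH_2132441) had 732 and 825 CPM in Δclr2 cultures and 741 and 697 CPM in parental cultures (0.11 ± 0.14, adjusted p = 0.524; 0.58 and called higher with library totals alone). A value that misses the threshold does not show that the strains were alike.

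Further called orthologs went in both directions. Wc2 (1.30), ClbR (1.03), MalR (1.01), Rce1 (0.66) and CreC (0.59) rose, and so did Mhr1 (0.81), Stk12 (0.73), Wc1 (0.54), CreB (0.47) and Vib2 (0.42). NmrA (-0.87), Xpp1 (-0.86) and GaaR (-0.65) fell, and so did Res1 (-0.66), Crz1 (-0.47), AreA (-0.44), Hap5 (-0.44) and Hap3 (-0.43). With library totals alone Xpp1, GaaR, Res1 and Ire1 were no longer called (-0.39, -0.18, -0.19 and -0.20), and Crz1, AreA, Hap5 and Hap3 changed sign (0.0036, 0.03, 0.03 and 0.04). Leaving out the first Δclr2 culture ended the calls of Mhr1 (0.65), Stk12 (0.56), Vib2 (0.39), Res1 (-0.70) and Hap3 (-0.37). Leaving out the second Δclr2 culture ended those of CreB (0.30), AreA (-0.41), Res1 (-0.59) and Hap3 (-0.46). Without the first parental culture Stk12 (0.73), Wc1 (0.53), CreB (0.41), Vib2 (0.28) and Res1 (-0.58) were not called. With the libraries of both strains fitted alone Res1 (-0.66) was not called. Without the second parental culture Stk12 (0.73), Wc1 (0.54), CreB (0.52), AreA (-0.33) and Hap3 (-0.35) were not called.

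**Figure D4:**
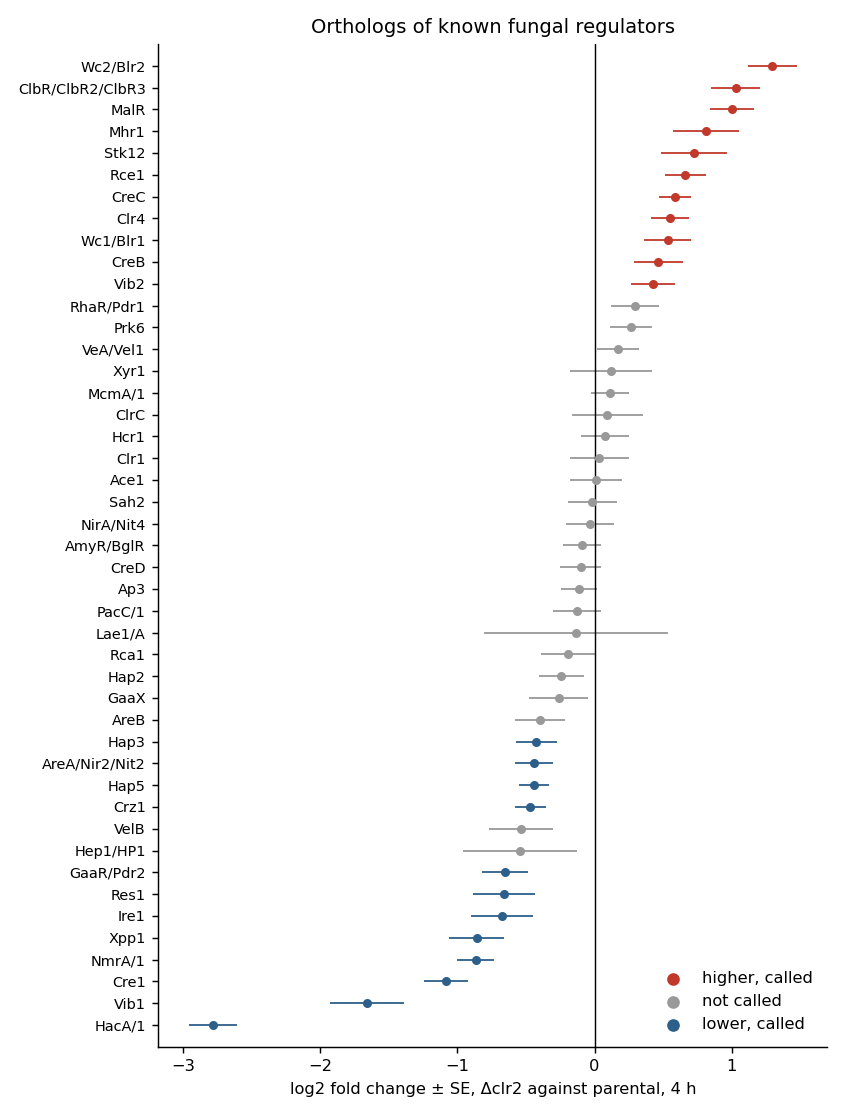
Log2 fold change (Δclr2 over parental, t4) of the orthologs of known fungal regulators reported here, other than clr2, with the SE as a horizontal bar; red points were called higher, blue points called lower and grey points not called. Hac1 (HacA/1) at -2.78 lies apart from the rest, which run from -1.66 for Vib1 to 1.30 for Wc2.

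Genes of growth and energy metabolism fell as groups. The study chose the terms of the next 4 paragraphs, this one included, on the same libraries, which makes their counts no independent evidence of a direction. All 14 genes of the 43S translation preinitiation complex fell (median log2 fold change -1.37, range -1.84 to -0.67) and all 11 of the large ribosomal subunit (median -1.24, range -3.06 to -0.66). With library totals alone 12 of the 14 and 10 of the 11 were still called lower. The translation elongation factor gene MYCTH_2298136, 1 of the 10 genes with the widest difference in CPM, had 3553 and 3228 CPM in Δclr2 cultures and 9338 and 9550.3 CPM in parental cultures (-1.48 ± 0.19, adjusted p = 1.3e-07).

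DNA replication genes moved the same way. All 6 genes of the MCM complex, the replicative helicase, fell (median -2.04, range -2.44 to -1.83), and all 6 were also lower with library totals alone. The 4 genes of replication factor C, which loads the sliding clamp, fell: MYCTH_2312770 by 1.84, MYCTH_2313161 by 1.82, MYCTH_2296782 by 1.43 and MYCTH_2312776 by 0.44 on the log2 scale. The call of MYCTH_2312776 was lost without the second Δclr2 culture (-0.29), the first parental culture (-0.47) or the second parental culture (-0.41), and with RLE factors (-0.38) or DESeq2 (-0.39), and its sign changed with library totals alone (0.03).

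In the mitochondrion all 7 genes of respiratory complex III fell (median -1.38) and 7 of 8 cytochrome-c oxidase genes (median -0.995); 6 and 5 of them were lower with library totals alone. All 4 pyruvate dehydrogenase complex genes fell, by 2.56 for MYCTH_2297263, 1.67 for MYCTH_2303910, 1.63 for MYCTH_2080603 and 0.45 for MYCTH_2309210 on the log2 scale. The first of these had 42.4 and 41.7 CPM in Δclr2 cultures and 248 and 249 CPM in parental cultures. The call of MYCTH_2309210 was lost without either Δclr2 culture (-0.44 and -0.45) or the first parental culture (-0.35), and its sign changed with library totals alone (0.02).

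Biosynthetic pathways for amino acids and purines fell too. The 4 genes of lysine biosynthesis through aminoadipic acid fell: MYCTH_2088454 by 2.62, MYCTH_2295392 by 2.06, MYCTH_2307131 by 1.88 and MYCTH_2301648 by 1.72 on the log2 scale. The most abundant of them, MYCTH_2307131, had 191 and 209 CPM in Δclr2 cultures and 720.1 and 752 CPM in parental cultures. The 4 genes of chorismate biosynthesis, the stem of the aromatic amino acids, fell: MYCTH_2307175 by 2.42, MYCTH_2312913 by 1.83, MYCTH_2312474 by 1.73 and MYCTH_2075999 by 0.35, the last a call lost without any 1 of the 4 libraries (-0.39 to -0.29) and of the other sign with library totals alone (0.12), with DESeq2 and RLE factors not called either (-0.30 for both). The 4 genes of purine nucleobase biosynthesis fell: MYCTH_2303613 by 2.57, MYCTH_2296847 by 2.52, MYCTH_2301266 by 0.92 and MYCTH_2302511 by 0.76, the last not called with library totals alone (-0.28).

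The 3 catalase genes, whose products break down hydrogen peroxide, rose (median 0.86), a term also picked by the study on these samples. MYCTH_2299739 had 143 and 79.6 CPM in Δclr2 cultures, against 13.7 and 13.8 CPM in parental cultures (3.01 ± 0.32, adjusted p = 4.99e-09). MYCTH_2303088 had 449 and 441 CPM in Δclr2 cultures and 261 and 230.3 CPM in parental cultures (0.86 ± 0.23, adjusted p = 0.00239). For cat1 (MYCTH_80916, 0.57 ± 0.24, adjusted p = 0.0461) the call was lost without any 1 of the 4 libraries (0.52 to 0.63), without the exponential state libraries, with no filter on low counts (0.56 for both) and with the libraries of both strains alone (0.57).

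Of the 10 genes with the highest fold changes among those with a mean count of at least 50, all but 1 have no annotation in the tables used here. MYCTH_2296064 (chromosome 1, 3837861 to 3839882) had 4939 and 4502 CPM in Δclr2 cultures, against 66.9 and 63.2 CPM in parental cultures (6.18 ± 0.41, adjusted p = 2.82e-13). MYCTH_2065222 had 76.8 and 60.5 CPM in Δclr2 cultures and 0.536 and 0.342 CPM in parental cultures (7.25 ± 0.87, adjusted p = 1.4e-07). Neither gene overlapped between strains, where both Δclr2 cultures lay above both parental cultures for 38.3% of all genes tested. MYCTH_2308149, annotated with ion channel activity, had 452 and 256 CPM in Δclr2 cultures and 6.78 and 11.8 CPM in parental cultures (5.25 ± 0.39, adjusted p = 1.05e-11). The log2 fold changes of the others of the 10 were 6.22 for MYCTH_51515, 5.99 for MYCTH_2050486, 5.93 for MYCTH_2296904, 5.44 for MYCTH_94523, 5.17 for MYCTH_55928, 4.96 for MYCTH_65475 and 4.74 for MYCTH_2119667. Among the 10 widest differences in CPM, the unannotated MYCTH_2134407 was higher, with 6897 and 7342 CPM in Δclr2 cultures and 1153 and 1652 CPM in parental cultures (2.34 ± 0.25, adjusted p = 3.36e-09). The unannotated MYCTH_2298860 was lower, with 1562 and 2634 CPM in Δclr2 cultures and 8163 and 7539 CPM in parental cultures (-1.90 ± 0.23).

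The change from SS to t4 was compared between the strains to separate differences that arose after the spike. The fit did not pair the SS and t4 samples of a culture. Against their own SS cultures, 1840 genes were higher (21.5%) and 2219 lower (25.9%) at t4 in the Δclr2 strain, and 638 higher (7.45%) and 538 lower (6.28%) in the parental strain. The test of the difference between both responses called 1097 genes more positive (12.8%) and 1591 more negative (18.6%) in the Δclr2 strain, 31.4% in all. With library totals alone the counts were 2899 and 751, and with totals that left out the CAZY genes 2175 and 917, so the balance depended on the scaling. Of the 46 cellulase genes, 15 were higher and 2 lower at t4 than at SS in the Δclr2 strain, and 32 were higher and 2 lower in the parental strain. The response of 21 cellulase genes was more negative in the Δclr2 strain and that of 1 more positive. The difference was not called for the LPMO gene MYCTH_100518 (adjusted p = 0.083), which had 1 count over both Δclr2 cultures at t4.

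The single genes differed in how much of the response was left. The endoglucanase MYCTH_86753 had 35.8 and 28.6 CPM at SS in Δclr2 cultures and 30.4 and 28.0 CPM at SS in parental cultures. Its change to t4 was -0.20 ± 0.24 (SE) on the log2 scale in the Δclr2 strain (adjusted p = 0.53) and 7.99 ± 0.30 in the parental strain (adjusted p = 8.3e-20), a difference of -8.19. The cellobiohydrolase MYCTH_109566 rose in both strains, by 3.61 ± 0.36 in the Δclr2 strain and by 7.49 ± 0.43 in the parental strain. The β-glucosidase MYCTH_115968 also rose in both, by 3.51 ± 0.26 in the Δclr2 strain and by 5.19 ± 0.28 in the parental strain. Hac1 changed by -0.14 ± 0.17 in the Δclr2 strain (adjusted p = 0.53) and rose by 2.47 ± 0.17 in the parental strain.

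Over the time course cellulase transcripts took their largest share of counts in the Δclr2 strain at t1 and smaller shares afterwards. Cellulase genes took 0.224% and 0.255% of all counts in Δclr2 cultures at SS, against 0.214% and 0.172% in parental cultures. At t1 the shares were 0.739% and 0.863% in Δclr2 cultures and 2.55% and 4.18% in parental cultures. At t2 they were 0.28% and 0.33% in Δclr2 cultures and 8.52% and 10.7% in parental cultures. The shares of t3 were 0.268% and 0.228% in Δclr2 cultures and 11.3% and 12.2% in parental cultures. Set beside the shares of t4 given above, both Δclr2 cultures were highest at t1 and higher at t4 than at t3, and the parental cultures were highest at t3. The β-glucosidase MYCTH_115968 had 3385 and 4769 CPM in Δclr2 cultures and 4939 and 5806 CPM in parental cultures at t1, and 511 and 479.7 CPM in Δclr2 cultures and 8321 and 6891 CPM in parental cultures at t3. Its strain difference was -0.40 on the log2 scale at t1 (adjusted p = 0.22), -3.94 at t3 and -1.46 at t4. The endoglucanase MYCTH_76901 likewise stood at -0.41, -5.71 and -2.74. The orders of times were not tested. A test of the strain difference at t4 against that at t1 called 601 genes more positive (7.02%) and 968 more negative (11.3%) at t4, 18.3% in all (2104 and 486 with library totals alone, and 347 more positive without the first parental culture of t4 or 371 without the first Δclr2 culture of t1), with 21 of the 46 cellulase genes among the more negative ones.

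**Figure D5:**
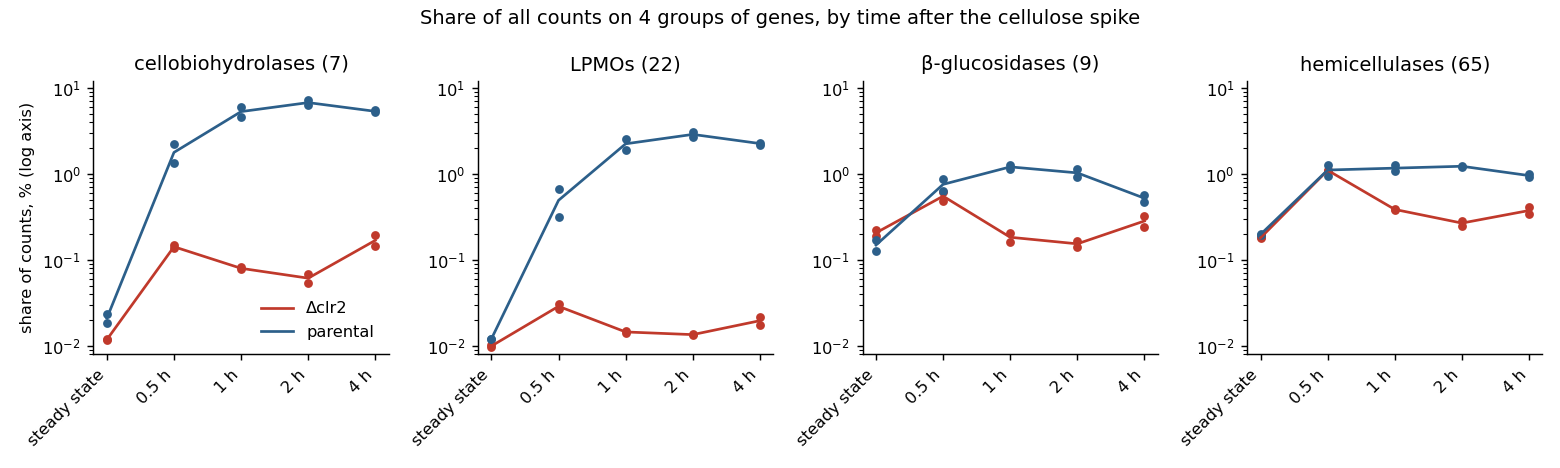
Share of all counts (%, log axis) on cellobiohydrolase, LPMO, β-glucosidase and hemicellulase genes at steady state and 0.5, 1, 2 and 4 h after the spike, with 1 point per culture and lines through the means of 2 cultures (red, Δclr2; blue, parental). Hemicellulases take 1.12% and 1.08% in Δclr2 cultures and 0.935% and 1.28% in parental cultures at 0.5 h, where the strains overlap, and at 4 h cellobiohydrolases take 0.143% and 0.194% in Δclr2 cultures and 5.48% and 5.18% in parental cultures.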

How the data were processed

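The deposited count table holds the authors' raw counts of reads per gene, 9292 genes in 48 libraries from whole mycelium. The submitters' processing notes name FastQC, STAR and DESeq2; versions, the counting program and whether it used strand are not given in the sources used here. The authors' sheets of normalized values and of their own test results (fold changes and p-values) were not used, and 0 sample columns were left unmapped.

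Counts were analysed in R 4.3.3 with edgeR 4.0.16 (TMM factors, filterByExpr with a count minimum of 10, robust glmQLFit, glmQLFTest). All 24 groups of strain and state were fitted together on 8565 genes (727 removed), with 24 residual degrees of freedom and a biological coefficient of variation of 0.151. The states of a strain were sampled in turn from the same duplicate cultures, and the fit held no term for the culture. Its residual degrees of freedom treat these repeated samples as independent. The tests of SS to t4 and of t4 against t1 left the pairing within a culture out. The 2 numbers per group are separate bioreactor cultures; 1 library listed for 2 flow cells has 1 column and counted once. Replicate cultures differed with an SD of 0.352 in Δclr2 and 0.368 in the parental strain on the log2 scale. The fit was first run on simulated data where few genes differed, as many higher as lower. That setting does not cover a comparison with 49.2% of genes called.

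Gene lists came from the study's CAZY, regulator and GO tables (39 GO terms whose members are complete there). Locus tags matched RefSeq assembly ASM22609v1 for 9286 genes and symbols for 6 more, the assembly to which the authors mapped the reads, and coordinates are those of RefSeq on it. Lists by product keyword and promoter motifs were not analysed here, and 1 regulator gene is not reported here. Named genes were those in the study's results text, the 10 highest and 10 lowest fold changes with a mean count of at least 50, the 10 widest CPM differences, up to 3 per CAZY class and regulator list, all members of described lists of 5 or fewer, and called regulator orthologs; others are marked as named after their values were seen. Members and lists were chosen with earlier results of these data known. Alternatives were DESeq2 1.42.0, its size factors (RLE), library totals, no filter, fewer libraries, a replicate block, a log2 limit of 1 and each culture left out.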

Additional observations from a re-analysis of the deposited data

Results flagged for a closer look

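The strain difference at t4 was tested against that at t1 (0.5 h) in 1 model, with the edgeR quasi-likelihood test and Benjamini-Hochberg adjustment. The model did not pair the t1 and t4 samples of a culture. It was more positive at t4 for 601 genes (7.02% of those tested) and more negative for 968 (11.3%). The counts were 2104 and 486 with library totals alone, and the first was 347 without the first parental culture of t4 and 371 without the first Δclr2 culture of t1. Over all genes called in this test, 21 were lower at t1 and higher at t4 in the Δclr2 strain and 90 were higher at t1 and lower at t4. Of 140 named genes 55 were called, beside 18.3% of all genes tested. Some named genes had been picked for wide differences at t4, and the same t4 libraries entered this test. That choice favours calls and large values here, so the 55 are no independent evidence of a change. Among the 55, 2 (the GT2 gene MYCTH_2309764 and cat1) were called at both times with opposite signs. The call of cat1 at t4 was lost without any 1 of the 4 libraries of t4. Values below are differences of log2 fold changes, t4 minus t1; no cause was tested.

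Among cellulase genes the strain difference was more negative at t4 by -5.28 for MYCTH_97137, -2.48 for MYCTH_2303045, -2.06 for MYCTH_66729, -2.67 for MYCTH_86753, -2.34 for MYCTH_76901 and -1.06 for MYCTH_115968. The LPMO genes gave -5.69 for MYCTH_85556, -4.91 for MYCTH_112089, -3.61 for MYCTH_80312, -3.40 for MYCTH_110651, -2.50 for MYCTH_111088, -2.38 for MYCTH_2298502, -1.99 for MYCTH_46583 and -1.55 for MYCTH_79765. MYCTH_85556 shows the pattern in its levels: 54.3 and 54.2 CPM in Δclr2 cultures and 79.4 and 201 CPM in parental cultures at t1, and 13.6 and 31.8 CPM in Δclr2 cultures and 2781 and 3318 CPM in parental cultures at t4. The cellobiose dehydrogenase genes gave -2.86 (MYCTH_81925), -1.61 (MYCTH_111388) and -1.54 (MYCTH_58125), and the genes with a family 1 carbohydrate-binding module -5.07 (MYCTH_33936) and -1.76 (MYCTH_112399). Unlike the other cellobiose dehydrogenase genes, MYCTH_58125 was called higher in the Δclr2 strain at t1 and was not called at t4 (0.13).

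Among other CAZY genes the values were -7.05 for the acetylxylan esterase MYCTH_2066457, -5.69 for the xylanase MYCTH_100068, -1.62 for the pectin lyase MYCTH_51766, -1.80 for the glucanase MYCTH_2296382, -1.09 for the chitinase MYCTH_2308241 and -3.52 for MYCTH_2309764. MYCTH_2309764 was higher in the Δclr2 strain at t1 (0.90) and lower at t4 (-2.62). More positive values were 3.88 for the CE12 gene MYCTH_2019397, 1.30 for the N-acetylglucosaminidase MYCTH_2294755, 1.19 for the α-glucosidase MYCTH_2087807 and 1.02 for the α-amylase MYCTH_69975, against -0.98 for the α-glucosidase MYCTH_2302289.

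NmrA gave -0.78, Hap5 -0.58 and Crz1 -0.47. The catalase genes gave 1.71 (MYCTH_2299739) and 1.49 (cat1, MYCTH_80916, with log2 fold changes of -0.92 at t1 and 0.57 at t4).

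Growth-related genes gave -1.10 for the elongation factor MYCTH_2298136, -1.13 for the pyruvate dehydrogenase gene MYCTH_2303910 and -0.83 for the replication factor C gene MYCTH_2313161. Lysine biosynthesis genes gave -1.66 (MYCTH_2088454), -1.57 (MYCTH_2295392) and -1.28 (MYCTH_2307131), purine genes -2.03 (MYCTH_2296847) and -1.20 (MYCTH_2302511), and chorismate genes -1.13 (MYCTH_2307175), -1.28 (MYCTH_2312474) and -1.16 (MYCTH_2312913). Unannotated genes gave 5.59 (MYCTH_94523), 4.55 (MYCTH_51515), 4.23 (MYCTH_2296904), 3.24 (MYCTH_2296064), 2.16 (MYCTH_2119667), 1.62 (MYCTH_2134407), 0.93 (MYCTH_2305024) and -1.57 (MYCTH_2308118), and the gene with ion channel activity MYCTH_2308149 gave 3.87.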

How the results depend on the processing

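At t4 leaving out each culture in turn gave 1392 to 1544 higher and 1800 to 1946 lower genes, 45 to 50 higher CAZY genes, 32 to 33 lower cellulase, 24 to 26 hemicellulase, 9 pectinase and 5 to 6 esterase genes, and 47 to 60 higher and 44 to 52 lower transcription factor genes (44 without the second Δclr2 culture). The response to the spike then gave 762 to 934 more positive and 1215 to 1419 more negative genes, and the strain difference at t4 against t1 gave 347 to 556 and 669 to 959 (347 without the first parental culture of t4, 371 without the first Δclr2 culture of t1). With library totals alone the counts, positive and negative, were 3859 and 1196 at t4, 2899 and 751 for the response and 2104 and 486 for t4 against t1, with 121 higher CAZY genes and 155 higher and 25 lower transcription factor genes; with totals without CAZY genes, chosen after seeing the data, they were 3042 and 1464, 2175 and 917, and 1493 and 583. Above a log2 limit of 1 they were 917 and 1174, 697 and 1027, and 367 more positive for t4 against t1. DESeq2 gave 2062 and 2150 at t4, RLE factors 2079 and 2142. Signs turned with library totals for MYCTH_104628 (0.13), MYCTH_2075999 (0.12), MYCTH_41855 (0.04), MYCTH_113457, MYCTH_67051 and MYCTH_2312776 (0.03 each), MYCTH_2309210 (0.02) and MYCTH_59287 (0.0036), and without 1 culture for MYCTH_2057906 (-0.42 to 0.63), MYCTH_58125 (-0.10 to 0.35), MYCTH_2303089 (-0.28 to 0.52) and MYCTH_77082 (-0.04 to 0.09). Except through the scaling itself, the cause was not tested.

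Deviations of same-numbered Δclr2 and parental cultures at t4 from their group means correlated at -0.0323 over 8565 genes. This is a single pair of cultures, so it cannot settle whether the replicate numbers pair the strains. Pairing of the samples of a culture over time was not checked, and the replicate block below was shared by all strains. With the number as a replicate block 1943 genes were higher and 2356 lower at t4, 1134 and 1643 in the response and 643 and 1016 for t4 against t1; of 140 named genes 139 kept their side of the threshold, and MYCTH_2305024 was newly called. Response differences could not be tested where counts were 0 in both Δclr2 groups, as for clr2.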
